A study of Mus musculus with 10 samples.

Results

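The IFIT family (interferon-induced proteins with tetratricopeptide repeats) was described in primary mouse cortical microglia exposed to serum vesicles. Its members were taken by gene symbol: Ifit1, Ifit2, Ifit3, Ifit3b and Ifit1bl1, and all 5 were among the 32074 genes of the expression table. The microglia, the resident macrophages of the brain, were cultured from cortices of CD-1 pups aged 2 to 4 days. A time of 24 h is given for every library, in all 3 groups. The SNI sEV group (3 libraries) received 1 µg of small extracellular vesicles (sEVs) from serum of mice with spared nerve injury, a surgical model of neuropathic pain. The sham sEV group (3 libraries) received 1 µg of sEVs from sham-operated mice, and the PBS group (4 libraries) received phosphate-buffered saline. All 3 groups were in medium with 10% vesicle-depleted fetal bovine serum. Strain, sex and age of the vesicle donors are not given in the sources used here, nor is it stated whether each library had its own culture or vesicle preparation. Values are in TPM, a unit of transcript level that corrects for gene length and sums to the same total in every library.

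IFIT genes are nearly silent in resting cells and are among the most strongly induced targets of type I and type III interferons. Interferon binding to its receptor activates the kinases Jak1 and Tyk2, which leads to the assembly of ISGF3, a transcription factor complex that contains Stat2 and Irf9. ISGF3 binds interferon-stimulated response elements in IFIT promoters, and some interferon regulatory factors can induce the same genes without interferon. The proteins act in the cytosol without enzyme activity. Ifit1 binds viral messenger RNA whose cap lacks 2′-O methylation and blocks its translation, Ifit2 limits infection of the mouse brain by neurotropic viruses, and human IFIT3 binds IFIT1 and stabilises it.

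The 5 genes lie side by side on mouse chromosome 19 (GRCm38, the build of the files, annotated by GENCODE). Ifit2 spans 34550694 to 34576419 on the plus strand, Ifit3 34583531 to 34588731 on the plus strand and Ifit1bl1 34592891 to 34601956 on the minus strand. Ifit3b follows at 34607970 to 34613401 on the plus strand and Ifit1 at 34640871 to 34650009 on the plus strand. Ifit1bl2, a further gene of the cluster that was not counted as a member, lies between them at 34617049 to 34640743 on the minus strand, so that it and Ifit1 start back to back. The cluster stands between Lipa and Slc16a12.

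The sequences before the gene starts are shown because the members moved together and because 4 of the 5 genes hold letters of the interferon response element there. Each stretch ends at the base before the start annotated by RefSeq (GRCm38.p6), read 5′ to 3′ on the strand of the gene. All 5 members had an entry. Capitals mark the letters GAAANNGAAA or their reverse complement TTTCNNTTTC, the repeated core of the interferon-stimulated response element, searched on both strands. These are letters of the reference genome, not of CD-1 cells. The Ifit1 stretch is chr19:34640744-34640888, plus strand, and holds the 145 bases between the starts of Ifit1bl2 and Ifit1. The others are 250 bases long: chr19:34583279-34583528, plus strand, for Ifit3, chr19:34607707-34607956, plus strand, for Ifit3b, and chr19:34601969-34602218, minus strand, for Ifit1bl1.
Ifit1: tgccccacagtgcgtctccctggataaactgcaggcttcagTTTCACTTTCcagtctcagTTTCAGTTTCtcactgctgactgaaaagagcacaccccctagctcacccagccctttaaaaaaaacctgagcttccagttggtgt
Ifit3: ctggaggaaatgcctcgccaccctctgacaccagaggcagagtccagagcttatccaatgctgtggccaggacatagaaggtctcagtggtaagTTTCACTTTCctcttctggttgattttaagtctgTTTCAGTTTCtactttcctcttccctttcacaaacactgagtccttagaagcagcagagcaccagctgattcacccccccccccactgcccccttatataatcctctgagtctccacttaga
Ifit3b: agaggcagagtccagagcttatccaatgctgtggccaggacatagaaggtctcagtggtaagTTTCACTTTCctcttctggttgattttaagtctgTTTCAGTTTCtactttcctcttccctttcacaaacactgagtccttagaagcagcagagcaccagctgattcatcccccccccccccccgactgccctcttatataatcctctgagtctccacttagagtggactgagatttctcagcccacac
Ifit1bl1: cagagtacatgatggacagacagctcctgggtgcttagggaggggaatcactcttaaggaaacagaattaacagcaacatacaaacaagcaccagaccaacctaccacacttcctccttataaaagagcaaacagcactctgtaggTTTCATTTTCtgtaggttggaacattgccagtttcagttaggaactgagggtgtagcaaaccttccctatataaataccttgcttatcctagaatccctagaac

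Ifit1 held 2 matches, TTTCACTTTC beginning 104 bases before its start and TTTCAGTTTC beginning 85 bases before it. The same bases, 34640785 to 34640794 and 34640804 to 34640813, lie before a start of Ifit1bl2 on the other strand, so the pair of genes shares both matches. Ifit3 held the same 2 ten-letter words, beginning 156 and 122 bases before its start, and Ifit3b held them at 188 and 154 bases. The upstream stretches of Ifit3 and Ifit3b share an identical run of 169 bases that includes both words. Ifit1bl1 has 2 annotated starts and held TTTCATTTTC once before each, beginning 104 bases before the start shown and 23 bases before the other. Ifit2 held none in either of its 2 annotated windows, which says only that these letters are not there. Across all RefSeq promoter windows of 300 bases (250 before to 50 after a start), 1131 of 32851 (3.44%) held at least 1 match and 0.225% held at least 2. By gene, 4 of the 5 IFIT members had a match in any window, against 3.99% of 27025 genes. Of the other interferon-stimulated genes with an entry, 9 of 16 had one. A match is a description of letters, not evidence of binding.

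**Figure D1:**
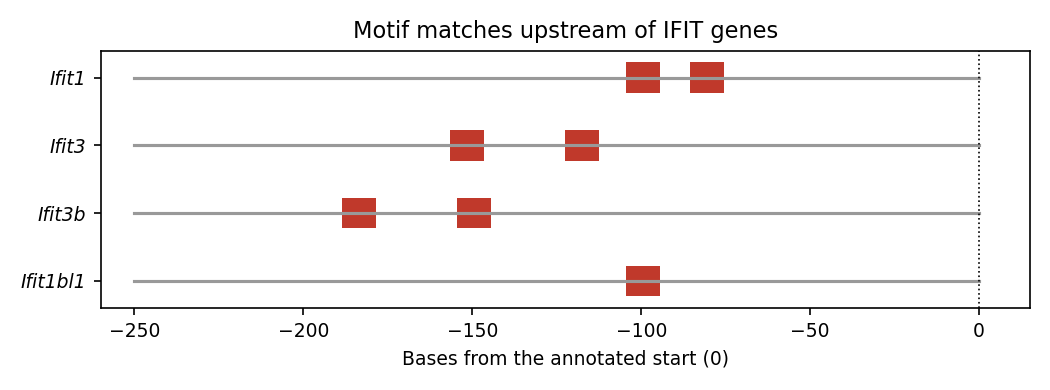
Position of GAAANNGAAA matches on either strand (red blocks, 10 bases each) in the 250 bases before the annotated start of 4 IFIT genes. The horizontal axis gives bases from the start, at 0. Ifit3 and Ifit3b show the same pair of matches, displaced by 32 bases, Ifit1 has a closer pair, and Ifit1bl1 has 1 before the start drawn. The other annotated start of Ifit1bl1, which also has 1, and Ifit2, which has none, are not drawn.

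The proteins encoded by Ifit3 and Ifit3b are almost the same. Their coding sequences were identical at 1201 of 1212 aligned bases (99.1%), and 51.2% of all 50-base windows of Ifit3 transcripts also occurred in Ifit3b. How the authors divided reads between such copies is not stated, so the level of each alone is uncertain. The other members were much farther apart. Ifit1 and Ifit1bl1 were 74.1% identical over their coding bases, Ifit1 and Ifit2 56.4%, and Ifit1 and Ifit3 52.3%. Ifit1bl1 shared 6.36% of its 50-base windows with Ifit1bl2 and 0.727% with Ifit1.

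Some facts of the whole series bear on every value below. Summed TPM of the 9 microglia markers counted here ran from 3835 to 4107 in SNI sEV, 3842 to 4043 in sham sEV and 3680.3 to 4179 in PBS libraries, and none of these markers was at 0. Markers of the oligodendrocyte lineage summed to 456 to 524 TPM in SNI sEV, 269 to 303 in sham sEV and 427 to 480 in PBS libraries. The microglia markers did not move as 1 block: limma called 4 of the 9 higher and 4 lower in SNI sEVs against sham sEVs. Of all tested genes, 49.9% were called higher and 15.7% lower in that comparison. Cx3cr1, a defining microglial receptor, averaged 385 TPM with SNI sEVs, 50.9 TPM with sham sEVs and 345 TPM with PBS, and Trem2 was likewise lowest with sham sEVs. Aif1, the microglial protein Iba1, ran the other way, with 363 TPM with SNI sEVs, 1206 TPM with sham sEVs and 201 TPM with PBS, and Itgam, Ptprc and Spi1 were also highest with sham sEVs. P2ry12 and Tmem119 averaged under 7 TPM in all groups. Astrocyte markers summed to 59.9 to 72.7 TPM in SNI sEV, 32.0 to 40.9 in sham sEV and 55.3 to 68.9 in PBS libraries. Endothelial markers (3 of 4 in the table) summed to 27.6 to 30.2 TPM in SNI sEV, 15.6 to 18.98 in sham sEV and 24.0 to 32.8 in PBS libraries. Nearly all of that was Flt1, with means of 28.7, 16.1 and 28.6 TPM. Pecam1 and Cdh5 averaged under 1 TPM and went the other way, highest with sham sEVs (0.811 and 0.499 TPM). Fibroblast and mural markers summed to 1.01 to 1.91 TPM in SNI sEV, 2.26 to 2.58 in sham sEV and 0.724 to 1.25 in PBS libraries. Most of the sham sEV sum was Dcn, which averaged 0.0508 TPM with SNI sEVs, 1.89 TPM with sham sEVs and 0.0372 TPM with PBS. Lum was also highest with sham sEVs, while the means of Col1a1, Col1a2 and Pdgfrb were lowest there. Neuron markers stayed under 20 TPM in every library. Of the lymphocyte and plasmacytoid dendritic cell list, 4 of 6 genes were in the table. They summed to 721 to 834 TPM in SNI sEV, 2371 to 2560 TPM in sham sEV and 290 to 400.4 TPM in PBS libraries. Nearly all of that was Bst2, itself an interferon target, with means of 762, 2490 and 337 TPM. Tcf4 went the other way, with means of 5.72, 3.54 and 5.44 TPM. Siglech and Ms4a1 averaged at most 0.0496 TPM in any group, and neither was highest with sham sEVs. The part of these shifts in the IFIT results was not tested, and in such bulk RNA fewer cells of a type and less RNA per cell cannot be told apart. The labels name no batch, so effects of handling that all libraries of 1 group had in common and effects of the vesicles cannot be told apart. As deposited, the median log2 fold change of all 14806 tested genes was 0.24 for SNI sEV against sham sEV, -0.01 for SNI sEV against PBS and -0.25 for sham sEV against PBS, and it came within 0.04 of 0 after median-of-ratios or quantile scaling. PBS replicate 2 stood apart from the other PBS libraries in interferon response genes. All 5 IFIT members were highest there, at a median of 2.14 times the mean of the other PBS libraries, as were 20 of 22 other interferon-stimulated genes, while the median of all tested genes was 1.01.

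All 5 IFIT members were highest with sham sEVs and lowest with PBS, with SNI sEVs between them, and for no member did the values of any 2 groups overlap. Ifit1bl1 passed the filter on the mean only through the sham sEV group, so its separation from that group is given as a description. Of all tested genes, 19.4% were without overlap and lower in SNI sEVs than in sham sEVs, 6.29% without overlap and higher in SNI sEVs than in PBS, and 16.7% without overlap and higher in sham sEVs than in PBS. Summed over the family, the level was 158 ± 20.6 TPM with SNI sEVs (SD, n = 3), 601 ± 67.3 TPM with sham sEVs (SD, n = 3) and 34.9 ± 16.1 TPM with PBS (SD, n = 4). The tests that follow compare log2(TPM + 1) with limma over all genes that averaged 1 TPM or more, with Benjamini-Hochberg adjustment over all of them and a threshold of 0.05. The comparisons with PBS share the same 4 PBS libraries and are not independent of each other.

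**Figure D2:**
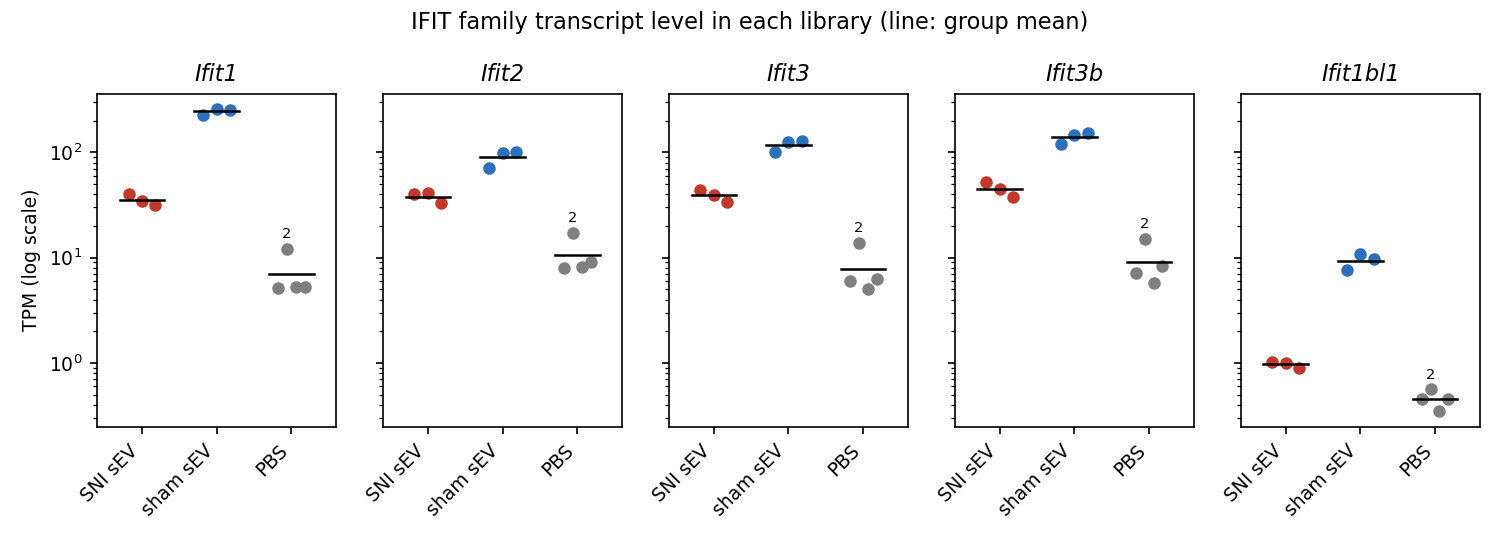
TPM of each IFIT gene in each library on a log axis (points, SNI sEV in red, sham sEV in blue, PBS in grey), with the group mean as a line. Sham sEV points lie above all SNI sEV points and these above all PBS points in every panel. The digit 2 marks PBS replicate 2, the highest PBS point for each gene.

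Ifit1, the sensor of incompletely capped RNA, had 40.5, 34.5 and 31.5 TPM in the SNI sEV libraries. It had 227, 260 and 250.4 TPM in the sham sEV libraries. In PBS libraries it had 5.15, 12.2, 5.31 and 5.24 TPM. The sham sEV libraries stood far above the rest, and even the highest PBS library, replicate 2, was well below every SNI sEV library. The means were 35.5 ± 4.59 TPM with SNI sEVs, 246 ± 17.1 TPM with sham sEVs and 6.97 ± 3.47 TPM with PBS (SD). Among the levels of all tested genes, Ifit1 stood at percentile 71.0 in SNI sEV, 96.2 in sham sEV and 31.9 in PBS cultures.

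Ifit2, the member known for limiting neurotropic infection, had 39.8, 41.1 and 33.0 TPM in the SNI sEV libraries. It had 70.5, 97.8 and 101 TPM in the sham sEV libraries. In PBS libraries it had 7.95, 17.2, 8.08 and 9.12 TPM. The order of the groups was that of Ifit1, but the sham sEV libraries were less far above the SNI sEV libraries. The means were 38.0 ± 4.34 TPM with SNI sEVs, 89.6 ± 16.6 TPM with sham sEVs and 10.6 ± 4.43 TPM with PBS (SD).

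Ifit3, whose human counterpart stabilises IFIT1, had 44.2, 39.0 and 34.0 TPM in the SNI sEV libraries. It had 99.7, 125 and 127 TPM in the sham sEV libraries. In PBS libraries it had 6.07, 13.9, 5.09 and 6.25 TPM. Its near-copy Ifit3b followed it library by library at a slightly higher level. Ifit3b had 52.2, 44.4 and 37.3 TPM in the SNI sEV libraries. It had 119, 147 and 153 TPM in the sham sEV libraries and 7.14, 15.2, 5.81 and 8.26 TPM in PBS libraries. Ifit3 averaged 39.1 ± 5.13 TPM with SNI sEVs, 117 ± 15.2 TPM with sham sEVs and 7.82 ± 4.07 TPM with PBS (SD). Ifit3b averaged 44.6 ± 7.46 TPM with SNI sEVs, 139.6 ± 17.9 TPM with sham sEVs and 9.10 ± 4.17 TPM with PBS (SD).

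Ifit1bl1, an Ifit1-like gene, was the lowest member in every library. It had 1.02, 1.00 and 0.904 TPM in the SNI sEV libraries. It had 7.57, 10.8 and 9.76 TPM in the sham sEV libraries and 0.451, 0.561, 0.347 and 0.455 TPM in PBS libraries. Its values were near or under 1 TPM outside the sham sEV group, and it passed the filter on the mean only through that group. The means were 0.976 ± 0.0636 TPM with SNI sEVs, 9.37 ± 1.65 TPM with sham sEVs and 0.453 ± 0.0873 TPM with PBS (SD). Its neighbour Ifit1bl2 had 1.76, 1.07 and 1.11 TPM in the SNI sEV libraries, 7.53, 8.68 and 8.47 TPM in the sham sEV libraries and 0.181, 0.374, 0.290 and 0.155 TPM in PBS libraries, without overlap between groups.

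SNI sEVs against sham sEVs asks whether the injury of the donor changed the response to serum vesicles. The 4 members that pass the filter on the mean without the sham sEV libraries were all called lower with SNI sEVs, against 15.7% of the 14806 tested genes called lower and 49.9% called higher. Ifit1 had the largest change of these and fell by 2.76 on the log2 scale (SE 0.25, limma adjusted p = 1.9e-06), which is 6.78-fold lower. Ifit3b was 3.09-fold lower (-1.63 ± 0.26, adjusted p = 0.00019), Ifit3 2.95-fold lower (-1.56 ± 0.27, adjusted p = 0.00036) and Ifit2 2.31-fold lower (-1.21 ± 0.24, adjusted p = 0.0010). These limma values are on the scale of TPM + 1. Ifit1bl1, which had to be high with sham sEVs to enter that fit, is not counted among the calls. Its log2 fold change was -2.38 ± 0.12 SE, and in the fit of all 32074 genes with no filter its limma adjusted p was 5.3e-07. Without the added 1 the order of the members turns, since the mean TPM of Ifit1bl1 was 9.60 times lower with SNI sEVs than with sham sEVs and that of Ifit1 6.91 times lower. Across all tested genes the split of calls moved to 3921 higher and 4820 lower after median-of-ratios scaling, against 7388 higher and 2319 lower as deposited. Under median-of-ratios and quantile scaling the 5 log2 fold changes lay between -3.07 for Ifit1 and -1.28 for Ifit2. In the authors' deposited table, the false discovery rate (FDR) of the 5 genes for SNI sEVs against sham sEVs lay between 0.000246 for Ifit1 and 0.00694 for Ifit2. Of the 2375 genes in the authors' deposited table, 98.8% had an FDR under 0.05 in that comparison.

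SNI sEVs against PBS asks what vesicles from injured donors did relative to no vesicles. All 5 members were called higher, against 2.97% of tested genes called higher and 2.36% called lower. Ifit1 rose 4.83-fold (log2 fold change 2.27 ± 0.23 SE, limma adjusted p = 0.00014) and had the 10th largest fitted rise of all tested genes. Ifit3 and Ifit3b held the next ranks, with rises of 4.83-fold (2.27 ± 0.25, adjusted p = 0.00027) and 4.73-fold (2.24 ± 0.24, adjusted p = 0.00022). Ifit2 rose 3.51-fold (1.81 ± 0.22, adjusted p = 0.00058). Ifit1bl1 rose 1.36-fold on the scale of TPM + 1 (0.44 ± 0.11, adjusted p = 0.037), while its mean TPM was 2.15 times that of PBS. Its call was lost in 9 of 19 alternative fits, among them quantile scaling (adjusted p = 0.185), the fit without the low-value filter (0.105) and the replicate block (0.0688). In the authors' deposited table, Ifit1bl1 was the only member with an FDR under 0.05 for SNI sEVs against PBS, at 0.0459, where 6.36% of the 2375 genes in that table were under 0.05. The FDR in the authors' deposited table was 0.0581 for Ifit1, 0.0615 for Ifit3b, 0.0637 for Ifit3 and 0.0696 for Ifit2. The fold changes in the authors' deposited table equalled those given here, and the test behind its FDR is not stated. Without PBS replicate 2 the 5 limma calls held, with log2 fold changes of 2.54 for Ifit1, 2.05 for Ifit2, 2.55 for Ifit3, 2.50 for Ifit3b and 0.48 for Ifit1bl1 (adjusted p = 0.038).

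Sham sEVs against PBS gave the largest differences of the family. The 4 members other than Ifit1bl1 were all called higher, against 16.5% of tested genes called higher and 52.5% called lower. The calls numbered 2437 higher and 7768 lower as deposited, and 5003 higher and 4345 lower after median-of-ratios scaling. Ifit1 rose 32.7-fold (log2 fold change 5.03 ± 0.23 SE, limma adjusted p = 4.1e-09) and ranked 28th among the fitted rises. Ifit3b rose 14.6-fold (3.87 ± 0.24, adjusted p = 5.9e-08), Ifit3 14.2-fold (3.83 ± 0.25, adjusted p = 9.2e-08) and Ifit2 8.10-fold (3.02 ± 0.22, adjusted p = 2.9e-07). Ifit1bl1, again not counted among the calls, was 7.08-fold higher on the scale of TPM + 1 (2.82 ± 0.11; limma adjusted p = 7.8e-08 in the fit with no filter), while its mean TPM was 20.7 times that of PBS. The added 1 weighs on this low gene most. Without PBS replicate 2 the log2 fold changes were 5.30 for Ifit1, 3.26 for Ifit2, 4.11 for Ifit3, 4.13 for Ifit3b and 2.86 for Ifit1bl1. In the authors' deposited table the FDR of the 5 genes for sham sEVs against PBS ran from 6.2e-05 for Ifit1bl1 to 0.00105 for Ifit2, where 99.3% of the genes in that table were under 0.05.

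**Figure D3:**
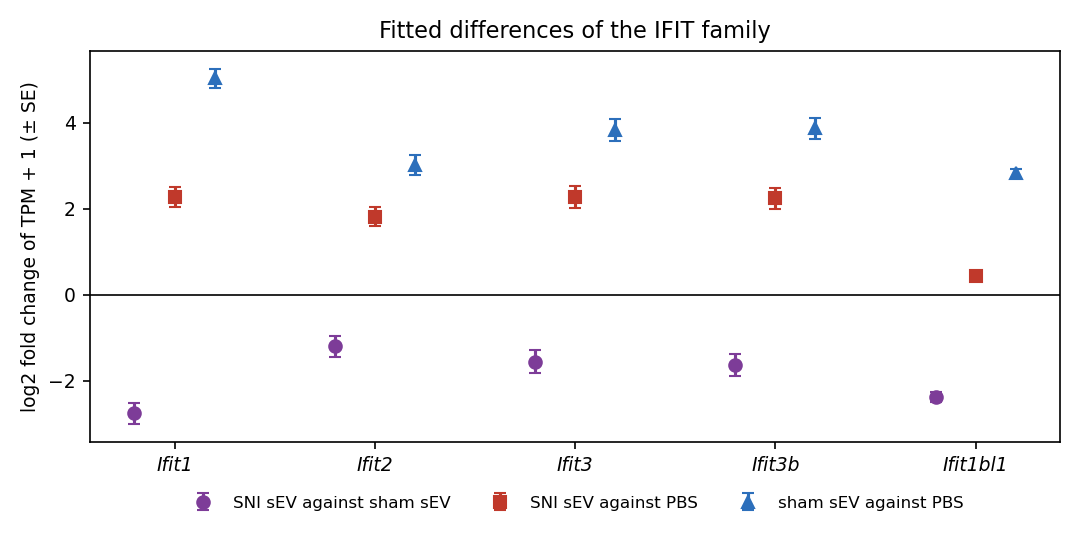
Fitted log2 fold change of TPM + 1 for each IFIT gene in 3 comparisons (circles, SNI sEV against sham sEV; squares, SNI sEV against PBS; triangles, sham sEV against PBS), with the standard error as bars. All circles lie below 0, from -2.76 for Ifit1 to -1.21 for Ifit2, and all squares and triangles lie above 0. The square of Ifit1bl1, at 0.44, is the closest to 0.

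The reads of Ifit3 and Ifit3b cannot be placed with certainty in 1 gene or the other, so their TPM were also summed into 1 value. The sum gave log2 fold changes of -1.61 for SNI sEVs against sham sEVs, 2.33 for SNI sEVs against PBS and 3.94 for sham sEVs against PBS. These lie close to those of either gene. The mean log2 ratio of Ifit3 to Ifit3b was -0.19 ± 0.05 with SNI sEVs, -0.25 ± 0.02 with sham sEVs and -0.24 ± 0.12 with PBS (SD), and these ranges overlapped in all 3 comparisons.

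The make-up of the family, described here without a test, differed between the groups. With Ifit3 and Ifit3b counted apart, the leading gene was a different one in each. Ifit3b was the highest member in 3 of 3 SNI sEV libraries, Ifit1 in 3 of 3 sham sEV libraries and Ifit2 in 4 of 4 PBS libraries. How reads were divided between Ifit3 and Ifit3b is not stated, so which gene leads is uncertain. Ifit1 made up 22.5 ± 0.79% of the summed IFIT TPM with SNI sEVs, 41.0 ± 2.12% with sham sEVs and 19.8 ± 1.61% with PBS (SD). Ifit2 made up 24.1 ± 1.67% with SNI sEVs, 14.8 ± 1.19% with sham sEVs and 30.7 ± 1.63% with PBS. The share of Ifit1 was highest in the sham sEV libraries and lowest in PBS, and the share of Ifit2 had the opposite order. Ifit1bl1 held 0.621 ± 0.0428% with SNI sEVs, 1.55 ± 0.123% with sham sEVs and 1.40 ± 0.319% with PBS. By mean level, neighbours in the order of the SNI sEV group (Ifit3b, Ifit3, Ifit2, Ifit1) differed by less than the larger SD of the pair. So did those in the PBS group (Ifit2, Ifit3b, Ifit3, Ifit1). That SD is a spread between libraries, which all members share, so it does not measure differences within a library. Within PBS libraries the share of Ifit2 ran from 29.1 to 32.8% and that of Ifit3b from 23.6 to 28.2%, without overlap. In the sham sEV group every Ifit1 value was above every Ifit3b value.

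**Figure D4:**
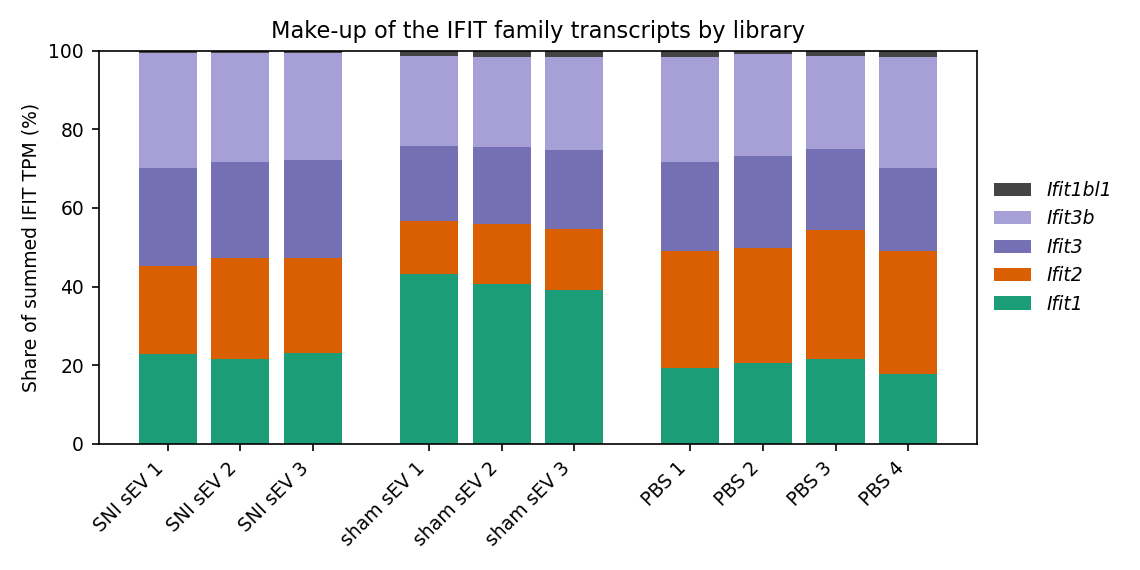
Share of each IFIT gene in the summed TPM of the family (stacked bars, percent), 1 bar per library. Ifit1 takes 39.1 to 43.3% in the sham sEV libraries, against 21.6 to 23.0% in the SNI sEV libraries and 17.9 to 21.6% in the PBS libraries.

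Whether members moved by unequal amounts was tested on the log2 ratio between members, with exact two-sided permutation tests over libraries. With 10 pairs and 3 comparisons, 30 tests were made, and none could pass 0.05. The smallest p that 3 against 3 libraries allow is 0.1, and 3 against 4 allow 0.0571. The mean log2 ratio of Ifit1 to Ifit2 was -0.10 ± 0.14 with SNI sEVs, 1.47 ± 0.19 with sham sEVs and -0.63 ± 0.13 with PBS (SD). It did not overlap between any 2 groups, and each p was the smallest allowed (exact permutation p = 0.1 for SNI against sham sEVs and 0.0571 for each comparison with PBS; 0.12, 0.107 and 0.107 adjusted over the 30 tests). Against sham sEVs, the SNI sEV libraries thus had 1.57 less Ifit1 per Ifit2 on the log2 scale. Most of the 30 tests were likewise without overlap and at the smallest p allowed, so neither sets this pair apart. Ifit1 and Ifit3 rose by nearly the same amount with SNI sEVs over PBS, with a ratio difference of 0.02 (exact permutation p = 0.857), while with sham sEVs over PBS Ifit1 rose by 1.23 more on that scale (exact permutation p = 0.0571).

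The pathway that induces IFIT genes was set beside them. Interferon ligands were at the bottom of the table: 6 of 16 listed ligands had a row and none reached the filter. Ifnb1, which encodes interferon beta, had 0.118, 0.113 and 0 TPM in the SNI sEV libraries. It had 0.289, 0.451 and 0.393 TPM in the sham sEV libraries, and in PBS libraries 0.0666 TPM in replicate 1 and 0 in the 3 others. The sham sEV libraries were the highest, with no overlap with the other groups, but no test was made at this level and the depth is unknown. Ifng, which encodes interferon gamma, was listed at 0 in every SNI sEV and PBS library and at 0.0319 to 0.0368 TPM in the sham sEV libraries. The remaining ligands with a row had no common order. Ifnk averaged 0.0202 TPM with SNI sEVs, 0.0181 TPM with sham sEVs and 0.0176 TPM with PBS. Ifna4 averaged 0.0226 TPM with SNI sEVs and was at 0 in all other libraries. Ifnl2 and Ifnl3 averaged 0.0195 and 0.0187 TPM with sham sEVs, each with 2 of 3 libraries at 0, and were at 0 in the other groups.

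Stat2 and Irf9, parts of ISGF3, followed the order of the IFIT genes with smaller differences. Stat2 averaged 105 ± 8.02 TPM with SNI sEVs, 168 ± 9.46 TPM with sham sEVs and 42.8 ± 8.95 TPM with PBS (SD). Irf9, the DNA-binding part, averaged 64.0 ± 1.29 TPM with SNI sEVs, 80.0 ± 0.23 TPM with sham sEVs and 44.4 ± 3.62 TPM with PBS. Both fell in SNI sEVs against sham sEVs (log2 fold change -0.68 for Stat2 and -0.32 for Irf9, limma adjusted p = 0.0011 and 0.0012). Both rose in SNI sEVs against PBS, Stat2 by 1.29 and Irf9 by 0.52 (adjusted p = 0.00013 and 0.00036), and in sham sEVs against PBS, Stat2 by 1.97 and Irf9 by 0.84. The receptor chains did not share this order. Ifnar1 averaged 74.2 ± 3.51 TPM with SNI sEVs, 56.8 ± 1.62 TPM with sham sEVs and 79.0 ± 9.56 TPM with PBS. Its rise in SNI sEVs against sham sEVs (log2 fold change 0.38, adjusted p = 0.0041) lost its call under median-of-ratios scaling (0.07). Under quantile scaling the call held (0.30, limma adjusted p = 0.0091). The rise of Ifnar2 (0.20, adjusted p = 0.0070) changed sign with median-of-ratios scaling (-0.11) and lost its call with quantile scaling (0.06). The kinase Tyk2 fell by 0.60 on the log2 scale in SNI sEVs against sham sEVs (adjusted p = 0.00014). Of the 6 tested genes of receptor, kinases and ISGF3 counted here, 2 were higher and 3 lower with SNI sEVs than with sham sEVs as deposited. Of all tested genes, 49.9% were higher and 15.7% lower as deposited. After median-of-ratios scaling 0 of the 6 were higher and 4 lower, beside 3921 higher and 4820 lower of all tested genes. After quantile scaling 1 was higher and 3 lower, beside 4373 higher and 4130 lower of all tested genes.

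Among 5 interferon regulatory factors that act on IFIT promoters, Irf7 alone passed the test in the direction of the IFIT genes in all 3 comparisons. Irf7, which amplifies interferon responses, had 146, 125 and 115 TPM in the SNI sEV libraries. It had 1054, 1128 and 1112 TPM in the sham sEV libraries and 19.6, 35.4, 19.7 and 22.2 TPM in PBS libraries. As with the IFIT genes, PBS replicate 2 was the highest PBS library. Irf7 was lower in SNI sEVs than in sham sEVs by a log2 fold change of -3.09 ± 0.18 (SE, limma adjusted p = 5.3e-08) and higher in sham sEVs than in PBS by 5.48 ± 0.17 (adjusted p = 1.7e-10). Irf8, a factor of microglial identity, ran the other way, with 148 ± 4.59 TPM with SNI sEVs, 86.4 ± 3.06 TPM with sham sEVs and 162 ± 7.19 TPM with PBS. It rose by 0.77 on the log2 scale in SNI sEVs against sham sEVs (adjusted p = 2.1e-07), a call that held under median-of-ratios and quantile scaling, and did not pass the test in SNI sEVs against PBS (-0.12, adjusted p = 0.21). Irf1 was at a log2 fold change of -0.12 in SNI sEVs against sham sEVs (adjusted p = 0.29). Irf3 and Irf5 were higher there by 0.27 each, calls that were lost after median-of-ratios scaling with values of -0.03 and -0.04. Under quantile scaling Irf5 kept its call (0.19, limma adjusted p = 0.011) and Irf3 did not (0.14, adjusted p = 0.28).

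Inhibitors of interferon signalling differed from each other. Usp18, which blocks the receptor chain Ifnar2 and is itself an interferon target, averaged 67.1 ± 6.77 TPM with SNI sEVs, 339 ± 17.2 TPM with sham sEVs and 19.9 ± 7.52 TPM with PBS (SD). It fell by 2.32 on the log2 scale in SNI sEVs against sham sEVs (SE 0.21, limma adjusted p = 2.0e-06) and rose by 1.76 in SNI sEVs against PBS (adjusted p = 0.00027). Socs3, an inhibitor of Jak kinases, averaged 4.07 ± 0.39 TPM with SNI sEVs, 160 ± 8.90 TPM with sham sEVs and 3.61 ± 0.33 TPM with PBS. Its relative Socs1 averaged 1.46 ± 0.24 TPM with SNI sEVs, 8.44 ± 1.02 TPM with sham sEVs and 1.09 ± 0.69 TPM with PBS. In SNI sEVs against PBS neither Socs3 nor Socs1 passed the test (log2 fold changes of 0.14 and 0.29, adjusted p = 0.40 and 0.50). Irf2, a repressor of interferon targets, was 0.61 higher on the log2 scale in SNI sEVs against sham sEVs (adjusted p = 2.2e-05).

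The 22 other interferon-stimulated genes moved as the IFIT genes did. Oasl1, like Ifit1bl1, passed the filter only through the sham sEV group and is left out of the counts in comparisons with that group. In SNI sEVs against sham sEVs 19 of the other 21 fell and none rose by limma, and none was higher at an unadjusted p under 0.05. Of all tested genes, 15.7% were called lower and 49.9% higher in that comparison. The median log2 fold change of the 21 was -1.37, beside -1.60 for the 4 IFIT members and 0.24 for all tested genes. In SNI sEVs against PBS all 22 rose (21 after median-of-ratios scaling, where Ifitm3 lost its call), with a median of 1.42, beside 2.24 for the 5 IFIT members and -0.01 for all tested genes. In sham sEVs against PBS the 21 without Oasl1 rose as well (median 2.89, beside 3.85 for the 4 IFIT members and -0.25 for all tested genes). Of all tested genes, 2.97% were called higher in SNI sEVs against PBS and 16.5% in sham sEVs against PBS. Oasl1, which in mice restrains the translation of Irf7, averaged 2.08 ± 0.54 TPM with SNI sEVs, 57.3 ± 5.41 TPM with sham sEVs and 0.179 ± 0.105 TPM with PBS (SD), a log2 fold change of -4.25 in SNI sEVs against sham sEVs. Isg15, a ubiquitin-like modifier, averaged 104 ± 14.6 TPM with SNI sEVs, 641 ± 44.1 TPM with sham sEVs and 25.5 ± 8.84 TPM with PBS (SD). Zbp1, a sensor of nucleic acids in the Z form, averaged 39.7 ± 5.80 TPM with SNI sEVs, 254 ± 15.1 TPM with sham sEVs and 7.40 ± 1.83 TPM with PBS. The members that did not pass in SNI sEVs against sham sEVs were Eif2ak2, the kinase PKR (log2 fold change -0.19, adjusted p = 0.29), and Ifitm3, an inhibitor of virus entry (-0.07, adjusted p = 0.47). Both were called lower after median-of-ratios scaling, and neither was called after quantile scaling. The list was chosen with results of these libraries known, so its direction is no independent evidence.

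**Figure D5:**
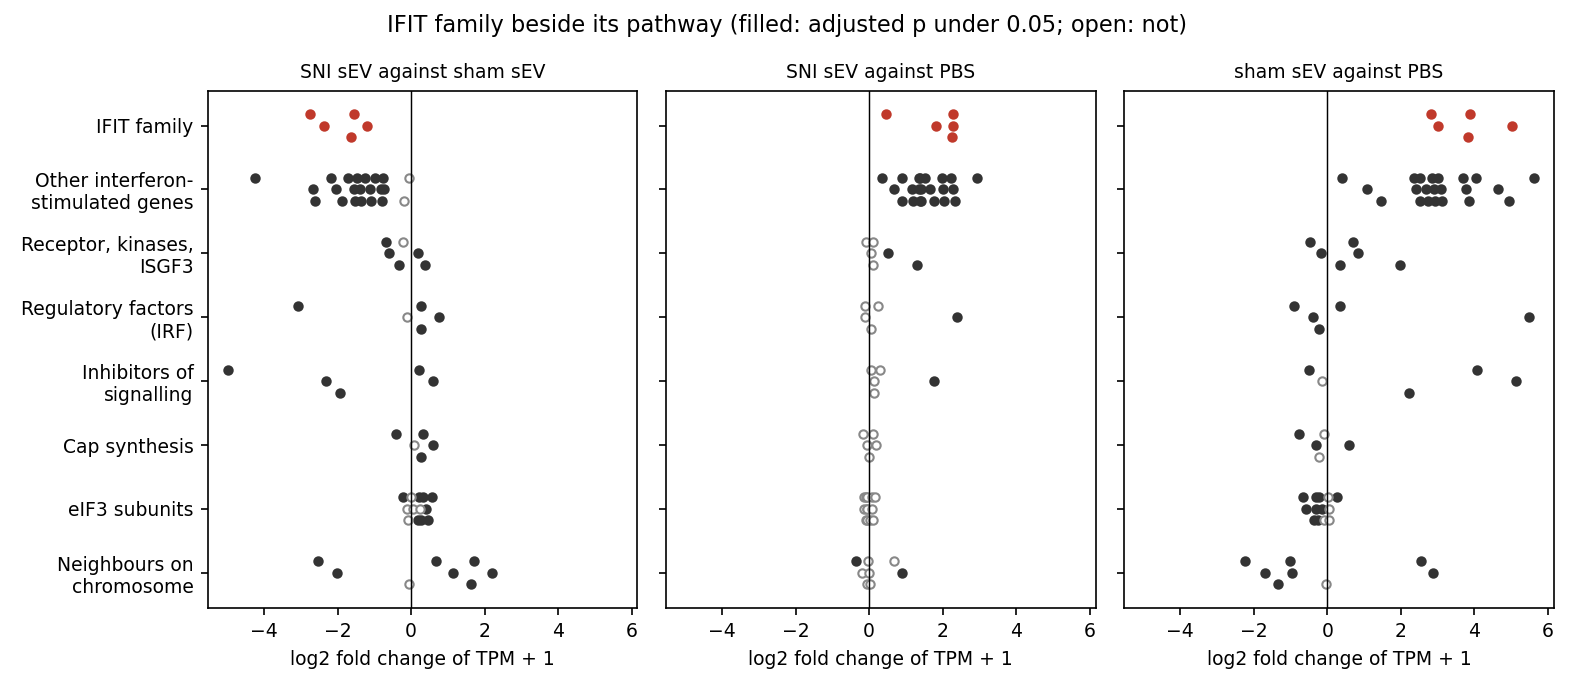
Log2 fold change of TPM + 1 of the tested genes in 8 lists (rows) for SNI sEV against sham sEV, SNI sEV against PBS and sham sEV against PBS (panels), 1 point per gene, IFIT genes in red. Filled points passed an adjusted p of 0.05 and open points did not; Ifit1bl1, Oasl1 and Ifit1bl2 reached the filter on the mean only through the sham sEV group. The IFIT genes and the other interferon-stimulated genes lie left of 0 in the first panel and right of 0 in the others, while cap synthesis genes and eIF3 subunits stay within 1 of 0 in all panels.

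Factors that IFIT proteins work with showed smaller differences. Ifit1 and Ifit2 bind the translation initiation factor eIF3, and limma called none of its 13 tested subunits in SNI sEVs against PBS (1 had an unadjusted p under 0.05). Of all tested genes, 2.97% were called higher and 2.36% lower in that comparison, so a list of this size can show little. In SNI sEVs against sham sEVs 7 subunits were higher and 1 lower as deposited, near the 49.9% higher and 15.7% lower of all tested genes. After median-of-ratios scaling 1 subunit was higher and 4 lower, and after quantile scaling 7 were higher and 2 lower. Eif3f, called higher, kept its call under both scalings, at 266 ± 1.24 TPM with SNI sEVs, 179 ± 8.47 TPM with sham sEVs and 282 ± 16.7 TPM with PBS (SD). Eif3c, called lower, also kept its call under both, at 271 ± 9.28 TPM with SNI sEVs, 316 ± 11.6 TPM with sham sEVs and 266 ± 20.9 TPM with PBS (SD). Cmtr1, which adds the 2′-O methyl group that hides messenger RNA from Ifit1 and is itself an interferon target, averaged 2.12 ± 0.0853 TPM with SNI sEVs, 3.15 ± 0.224 TPM with sham sEVs and 1.75 ± 0.134 TPM with PBS. It fell by 0.41 on the log2 scale in SNI sEVs against sham sEVs (limma adjusted p = 0.00092), and in SNI sEVs against PBS it was at 0.18 (adjusted p = 0.22). Limma called none of the 5 cap synthesis genes in SNI sEVs against PBS (2 had an unadjusted p under 0.05), beside the same low shares of all tested genes. In SNI sEVs against sham sEVs 3 of these 5 were higher and 1, Cmtr1, was lower as deposited, beside 49.9% higher and 15.7% lower of all tested genes. After median-of-ratios scaling 1 was higher and 2 lower, as after quantile scaling. Ramac, higher by 0.60 as deposited (limma adjusted p = 2.0e-05), kept its call under both scalings. Of the signalling partners known for human IFIT3, Sting1, an adaptor of DNA sensing, rose by 0.73 in SNI sEVs against sham sEVs (adjusted p = 2.6e-07), and Tbk1, a kinase that activates Irf3, fell by 0.24 (adjusted p = 0.030). Mavs, the adaptor of RNA sensing, was 0.36 higher as deposited and lost its call after median-of-ratios scaling (0.05). Under quantile scaling Mavs kept its call (0.19, limma adjusted p = 0.0057).

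Genes beside the cluster on chromosome 19 did not move with it as a block. Lipa, the lysosomal acid lipase next to Ifit2, averaged 1297 ± 105 TPM with SNI sEVs, 391 ± 11.6 TPM with sham sEVs and 1288 ± 178 TPM with PBS (SD), the reverse of the IFIT order for sham sEVs. It rose by 1.72 on the log2 scale in SNI sEVs against sham sEVs (SE 0.11, limma adjusted p = 8.5e-08) and was at 0.02 in SNI sEVs against PBS (adjusted p = 0.95). Fas, a death receptor, averaged 5.40 ± 0.43 TPM with SNI sEVs, 36.3 ± 1.30 TPM with sham sEVs and 5.45 ± 0.60 TPM with PBS. Fas was low with SNI sEVs as with PBS, with a log2 fold change of -0.01 between these groups (adjusted p = 0.97). Ch25h, which makes an antiviral oxysterol from cholesterol, averaged 204 ± 4.11 TPM with SNI sEVs, 128 ± 10.6 TPM with sham sEVs and 261 ± 15.4 TPM with PBS, and it was the only neighbour called lower in SNI sEVs against PBS (-0.35, adjusted p = 0.0070). Ifit1bl2 was the only neighbour called higher there (0.88 ± 0.11 SE, adjusted p = 0.00082), and its log2 fold change was -2.01 in SNI sEVs against sham sEVs, given with no test because it too passed the filter only through the sham sEV group. Slc16a12, on the other side of Ifit1, stayed under 0.2 TPM in every group and was not tested.

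The genes whose pattern was most like each member were found by the root mean square (RMS) difference of log2(TPM + 1), centred on the PBS mean, over the 10 libraries. Ifit1 was closest to Zbp1 (RMS 0.15), then Isg15 (0.27), Irf7 (0.28), the formyl peptide receptor Fpr2 (0.32) and the secreted fibrinogen-like Fgl2 (0.48). Ifit2 was closest to Oasl2 (0.21), then the p200 family genes Ifi211 and Ifi204, Rtp4 and Phf11d (up to 0.28). Ifit3 and Ifit3b shared the same 5 genes, led by H2-T24 of the class I histocompatibility genes (0.16 and 0.14) and followed by Usp18, Samd9l, Ifi44 and the complement component C3. Ifit1bl1 was closest to the chemokine Cxcl9 (0.06), then Pilrb1, Gpr85, Rgl1 and Pim1 (up to 0.15), genes whose sham sEV mean was far above both other means. Cxcl9 averaged 0.521 TPM with SNI sEVs, 6.80 TPM with sham sEVs and 0.0779 TPM with PBS. Within the family, Ifit3 and Ifit3b differed by 0.07, Ifit1 and Ifit2 by 1.14 and Ifit1 and Ifit1bl1 by 1.59. The measure weighs the size of the change, the libraries are the same 10 for all genes, and low genes are compressed by the added 1.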

How the data were processed

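Messenger RNA was sequenced in 10 libraries of primary cortical microglia. Per the labels' protocols, total RNA was column-purified with DNase treatment and made into stranded poly(A) libraries. Per the submitters' processing notes, the build was mm10 and the tools included featureCounts 2.0.2, Subread, BWA and bcl2fastq. Their roles, the annotation and the treatment of reads from near-identical copies are not given in the sources used here. The authors deposited TPM for 32074 symbols in 10 libraries. TPM keeps no read totals. Depth is therefore unknown, and counting intervals and detection limits could not be given. The authors also deposited a table of differential genes with a signed fold change, treated as a score, and an FDR, treated as an adjusted p-value, per the file headers.

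Groups came from the treatment labels, which call the libraries biological replicates. The p-values reflect the spread between these libraries alone, which may be technical. Genes that averaged 1 TPM or more (14806) were fitted as log2(TPM + 1) in limma 3.58.1 (R 4.3.3), with group means, eBayes with trend and all 3 groups in the same fit, two-sided, with Benjamini-Hochberg adjustment over all genes tested and a threshold of 0.05. Fold changes on the scale of TPM + 1 understate those of low genes. Ratios between members were compared by exact permutation (scipy 1.17.1). The fit was tested on simulated data. Positions came from GENCODE vM21 and promoters from RefSeq (GRCm38.p6). Motifs were searched with Python 3.11.15, transcripts were aligned with Biopython 1.88 and figures were drawn with matplotlib 3.10.9.

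The members, gene lists and tests were chosen with earlier results of these data known. By rule, all members and all genes of the lists of ligands, receptor and ISGF3, regulatory factors, inhibitors, cap synthesis, partners and neighbours may be named, up to 4 of the other lists by smallest p, and for each member the 5 genes of most like pattern (of 11717, without predicted genes and pseudogenes). Some genes of the chosen lists are not reported here and are left out of the lists' counts. Genes whose mean reached 1 TPM only through the sham sEV libraries (Ifit1bl1, Ifit1bl2 and Oasl1 among those listed) are left out of counts of calls in comparisons that include that group. Eif2ak2, Ifitm3, P2ry12, Tmem119, Itgam, Ptprc and Spi1 are outside the rule on names and were chosen after their values were seen. The same holds for Pecam1, Cdh5, Dcn, Lum, Col1a1, Col1a2, Pdgfrb, Eif3c, Siglech and Ms4a1.

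Deviations from the group means were correlated across genes between same-numbered SNI sEV and PBS libraries (0.363, 0.228 and 0.154). For differently numbered SNI sEV and PBS libraries the values ran from -0.351 to 0.220. A pairing is therefore not settled by these values, and the main fit used none. The replicate number was a block in 1 alternative fit only. For same-numbered sham sEV and PBS libraries the values were -0.0176, 0.0512 and -0.00228, and for SNI and sham sEV 0.0772, 0.0172 and 0.0733. Alternatives were other pseudocounts, filters, scalings, a robust spread, only the groups compared, the replicate block, Ifit3 and Ifit3b summed, and each library left out.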

Additional observations from a re-analysis of the deposited data

Results flagged for a closer look

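In 3 IFIT genes the highest PBS library, replicate 2, lay far from the other 3. Its gap to the nearest PBS library was 0.977 of the range of the group for Ifit1, 0.872 for Ifit2 and 0.869 for Ifit3, above the 95% critical value of Dixon's test for 4 samples. Chance flags about 1 in 20 groups, and the genes share the library, so the flags are not independent. The members were 1.34 to 2.39 times the mean of the other PBS libraries there. The fold changes between SNI and sham sEVs do not use that library's level, and the calls of Ifit1, Ifit2, Ifit3 and Ifit3b against PBS held without it.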

How the results depend on the processing

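Over 20 alternatives, 4 or 5 of the members were called higher in SNI sEV against PBS, beside 2.97% of tested genes in the main fit. Only 4 were tested with a filter of 5 TPM, or with Ifit3 and Ifit3b summed. Ifit1bl1 is not counted in comparisons that include sham sEVs. Ifit1, Ifit2, Ifit3 and Ifit3b kept every call, in the direction given, in every comparison. The calls of Ifit1bl1 in comparisons that include sham sEVs rest on a filter that it passed only through that group, except in the fit with no filter. Ifit1bl1 lost its call in SNI sEV against PBS in 9 of 19 fits, with log2 fold changes of 0.26 to 0.97 and adjusted p of 0.0062 to 0.185. The adjusted p was 0.145, 0.134 and 0.0907 without SNI sEV replicates 1, 2 and 3, 0.102 and 0.0676 without PBS replicates 3 and 4, and 0.0593 without sham sEV replicate 3. With the replicate number as a block, which leaves PBS replicate 4 without a partner, the adjusted p was 0.0688 (log2 fold change 0.45), and the block changed no other call of a member. All genes called in SNI sEV against PBS numbered 790, but 481 with only these groups fitted and 373 to 995 with a library left out, 373, 435 and 502 of them without SNI sEV replicates 1, 2 and 3 and 504 without PBS replicate 3. Ratio differences near 0 changed sign with a library left out: Ifit1 to Ifit3 (-0.0147 to 0.0896), Ifit1 to Ifit3b (-0.0168 to 0.159) and Ifit3 to Ifit3b (-0.00205 to 0.0901) in SNI sEV against PBS, and Ifit3 to Ifit3b (-0.068 to 0.0242) in sham sEV against PBS. The other ratio differences kept their sign. The cause of these shifts was not tested. Scaling moved the balance of all called genes, from 7388 higher and 2319 lower to 3921 and 4820 in SNI sEV against sham sEV, and from 2437 and 7768 to 5003 and 4345 in sham sEV against PBS (median-of-ratios). It left the direction of every IFIT gene as it was. Unknown depth limits what can be said of Ifit1bl1 and the ligands.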
